A study of Mus musculus with 20 samples.

Results

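Rod phototransduction was followed through 9 mouse genes: Gnat1, Gnb1, Pde6a, Pde6b, Pde6g, Sag, Rcvrn, Guca1a and Gucy2e. A gene was included when the platform annotation gives its symbol to a probe. Each of the 9 had 1 probe, among 10500 probes that stand for 9230 named genes, and all 9 probes had enough values to be tested. The RNA came from a pool of adult retina of C57/B6 mice and a cortex pool from Swiss-Webster mice of postnatal day 1. No treatment or genetic change is named for either pool, and how many animals went into each is not given. Total RNA was labelled with biotin and hybridised to 1-colour CodeLink arrays of GE Healthcare (Amersham), 5 arrays per pool at a first site (site 1) and 5 at site 2. The labels call these arrays technical replicates, so every p-value measures the spread between arrays and not between animals. Tissue, strain and age changed together and cannot be told apart.

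In the outer segment of a rod, an activated receptor switches on the G protein transducin, whose alpha and beta subunits are encoded by Gnat1 and Gnb1. Transducin relieves the inhibition that the small gamma subunit (Pde6g) exerts on the catalytic alpha and beta subunits (Pde6a, Pde6b) of cGMP phosphodiesterase, cGMP falls and cation channels close. Arrestin (Sag) ends the signal of the activated receptor, recoverin (Rcvrn) is a calcium sensor that restrains the receptor's kinase, and the calcium sensor Guca1a stimulates the membrane guanylate cyclase Gucy2e, which restores cGMP. Gnb1 differs from the others in being a G protein subunit of many cell types.

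RefSeq promoter windows of the mouse assembly GRCm38.p6 were available for 5 of the 9 genes: Sag, Pde6b, Guca1a, Gucy2e and Gnb1. The 250 bases before the transcription start were searched on both strands for TAATCC, a core site of the photoreceptor homeodomain factor CRX, for TAATTA, a general homeodomain site, and for TGCTGA, part of the sites of the rod factor NRL. The windows of 4 genes are shown because each holds a match, in capitals. GGATTA is TAATCC read on the opposite strand.
Sag, chr1:87803430-87803679, plus strand: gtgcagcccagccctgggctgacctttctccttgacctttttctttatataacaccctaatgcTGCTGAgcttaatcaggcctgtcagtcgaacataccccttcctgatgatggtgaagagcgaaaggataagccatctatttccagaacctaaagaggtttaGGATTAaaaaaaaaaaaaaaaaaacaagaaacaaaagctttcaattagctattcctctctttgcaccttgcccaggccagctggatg
Guca1a, chr17:47400607-47400856, minus strand: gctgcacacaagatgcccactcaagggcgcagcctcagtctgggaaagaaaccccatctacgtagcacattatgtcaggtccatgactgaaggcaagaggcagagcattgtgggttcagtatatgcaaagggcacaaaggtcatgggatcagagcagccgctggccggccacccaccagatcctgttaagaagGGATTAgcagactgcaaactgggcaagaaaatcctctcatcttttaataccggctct
Gucy2e, chr11:69237023-69237272, minus strand: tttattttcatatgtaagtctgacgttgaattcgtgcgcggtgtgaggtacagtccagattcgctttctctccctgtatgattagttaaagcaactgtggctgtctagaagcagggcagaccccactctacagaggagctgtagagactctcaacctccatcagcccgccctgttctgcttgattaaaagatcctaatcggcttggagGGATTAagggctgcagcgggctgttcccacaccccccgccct
Pde6b, chr5:108388123-108388372, plus strand: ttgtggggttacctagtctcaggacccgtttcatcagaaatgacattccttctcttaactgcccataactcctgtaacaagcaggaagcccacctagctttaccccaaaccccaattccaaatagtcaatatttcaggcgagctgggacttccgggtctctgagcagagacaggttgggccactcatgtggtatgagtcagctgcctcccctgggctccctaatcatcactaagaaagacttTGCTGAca
TAATCC was present in the windows of Sag, Guca1a and Gucy2e, 82 to 87, 52 to 57 and 37 to 42 bases before the start. Over 32851 promoter windows of this length 6.25% held it. TGCTGA was present in Sag, 182 to 187 bases before the start, and in Pde6b, 3 to 8 bases before it, and in 16.1% of the windows. No TAATTA was found in the 5 windows (4.84% of the windows held it), and Gnb1, whose window had 69.2% G and C against a median of 52.4%, held no match. These are matches of letters and no evidence of binding. TAATCC stood before Sag and Guca1a, which differed strongly between the tissues, and also before Gucy2e, which did not pass the test.

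The deposited intensities are on a scale where the array medians ran from 0.927 to 0.963. Intensities below 0.0445 form the lowest 5 percent of all values and those below 0.194 the lowest 25 percent, so readings near these levels rest on an unknown background step. Precision is limited by the number of arrays. Lists of marker genes were compared with the tissue labels. They were chosen with earlier results of these data known, so their counts are no independent check. Of 10 photoreceptor genes outside the 9, 9 were called higher in retina at site 1 and 10 at site 2. Of 10 genes of developing cortex, 9 were called higher in cortex at each site. Over all probes tested, 11.9% and 11.1% were called higher in retina at sites 1 and 2, and 13% and 13.5% lower. Of the other lists, retina was called higher for 10 of 11 genes of other retinal cells and 5 of 7 of pigment epithelium at each site (1 of these 7, Ttr, was called lower at site 2, by -1.27 log2), and for 3 (site 1) and 2 (site 2) of 4 of lens. The photoreceptor list summed to 414 to 470.1 in site 1 retina and 477 to 496 in site 2 retina. The cortical list summed to 71.0 to 75.6 and 69.5 to 80.1 in cortex, and to 15.9 to 19.7 and 14.5 to 17.4 in retina. In pooled RNA, fewer cells of a type and less RNA per cell cannot be told apart.

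A difference was called when limma's Benjamini-Hochberg adjusted p over 10339 probes fell under 0.05 with a difference of 2-fold or more. By this rule 8 of the 9 genes were higher in retina at site 1 and 8 at site 2, and 0 were lower. Of all probes tested, 11.9% were called higher in retina at site 1 and 11.1% at site 2. The exception at both sites was Gucy2e. The median log2 difference of the 9 genes was 4.97 at site 1 and 5.20 at site 2, against -0.04 and -0.05 over all probes tested. Every retina array read above every cortex array for 9 of 9 genes at site 1 and for 8 at site 2, where Gucy2e overlapped. Among all probes tested 26.2% and 24% separated in this way, and 27.1% and 24.2% in the opposite direction, which 0 of the 9 genes showed.

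**Figure D1:**
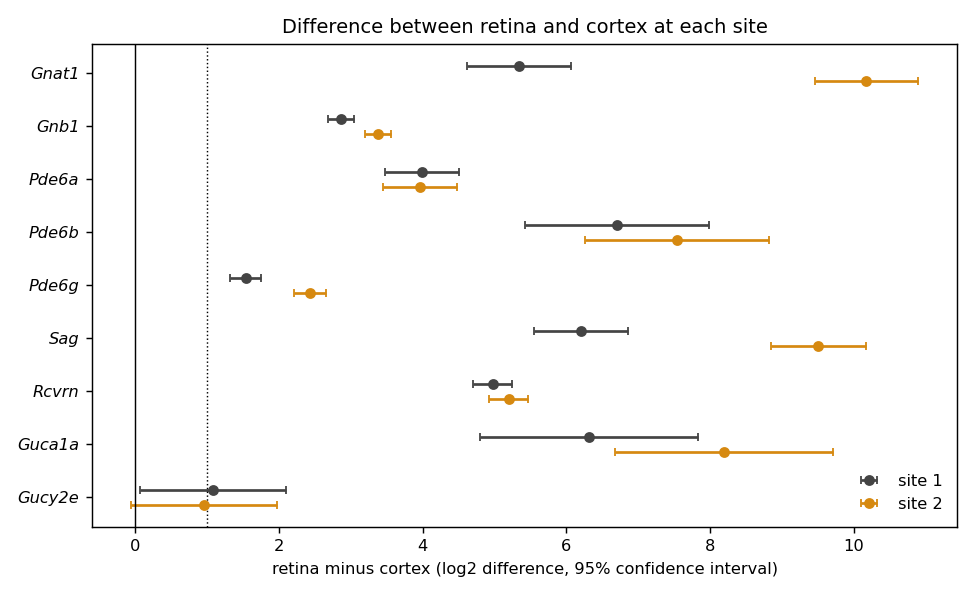
Log2 difference between retina and cortex for the 9 genes at site 1 (grey) and at site 2 (orange), with 95% confidence intervals from limma; the solid line marks no difference and the dotted line a 2-fold difference. Gnat1 and Sag stand farther right at site 2 (10.17 and 9.50) than at site 1 (5.34 and 6.20), and the intervals of Gucy2e reach down to 0.07 and -0.05.

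Gnat1, the alpha subunit of rod transducin, read 118, 96.6, 98, 107 and 121 on the site 1 retina arrays (replicates 1 to 5) and 1.80, 5.24, 4.56, 3.44 and 0.905 on the cortex arrays there. At site 2 it read 163, 166, 160.0, 159 and 167 in retina and 0.163, 0.155, 0.116, 0.203 and 0.0954 in cortex. The retina readings of a site lay close together, while the site 1 cortex readings spread over 5.78-fold and all lay above those of site 2. Retina exceeded cortex 40.5-fold at site 1 (95% interval 24.6 to 66.7) and 1152-fold at site 2 (699.5 to 1898), with limma adjusted p of 7.2e-11 and 4.8e-15. The site 2 cortex readings were mostly under the 25th percentile of all intensities, and with a floor there the site 2 log2 difference was 9.70 in place of 10.17. In order of level, Gnat1 was highest in site 2 retina, then site 1 retina, site 1 cortex and site 2 cortex, with no overlap of arrays between neighbours. The step between the retina groups (log2 difference 0.60, SE 0.34) did not pass the test (limma adjusted p = 0.165). In the main fit the 4 groups share 1 estimate of the spread for each probe. The SDs of Gnat1 at sites 1 and 2 were 1.05 and 0.43 log2 in cortex and 0.15 and 0.03 in retina (n = 5 each). Over the alternatives the limma adjusted p of this step ran from 1.3e-04 to 0.686, with differences of 0.19 to 0.64 log2.

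Gnb1, the beta subunit that transducin shares with other G proteins, read 65.6, 52.3, 50.3, 62.3 and 56.5 in site 1 retina and 7.74, 7.64, 8.60, 7.72 and 7.51 in cortex. At site 2 the retina arrays read 52.0 to 56.7 and the cortex arrays 4.37 to 5.94. The cortex reading was thus 13.1% to 15% of the retina mean at site 1 and 8.06% to 11% at site 2. The log2 difference was 2.87 (SE 0.09, 7.29-fold) at site 1 and 3.38 (SE 0.09, 10.4-fold) at site 2, with limma adjusted p of 1.0e-15 and 9.8e-17. The retina groups of both sites overlapped, and site 1 cortex stood above site 2 cortex on every array (1.5-fold, limma adjusted p = 2.8e-05, under the 2-fold limit).

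**Figure D2:**
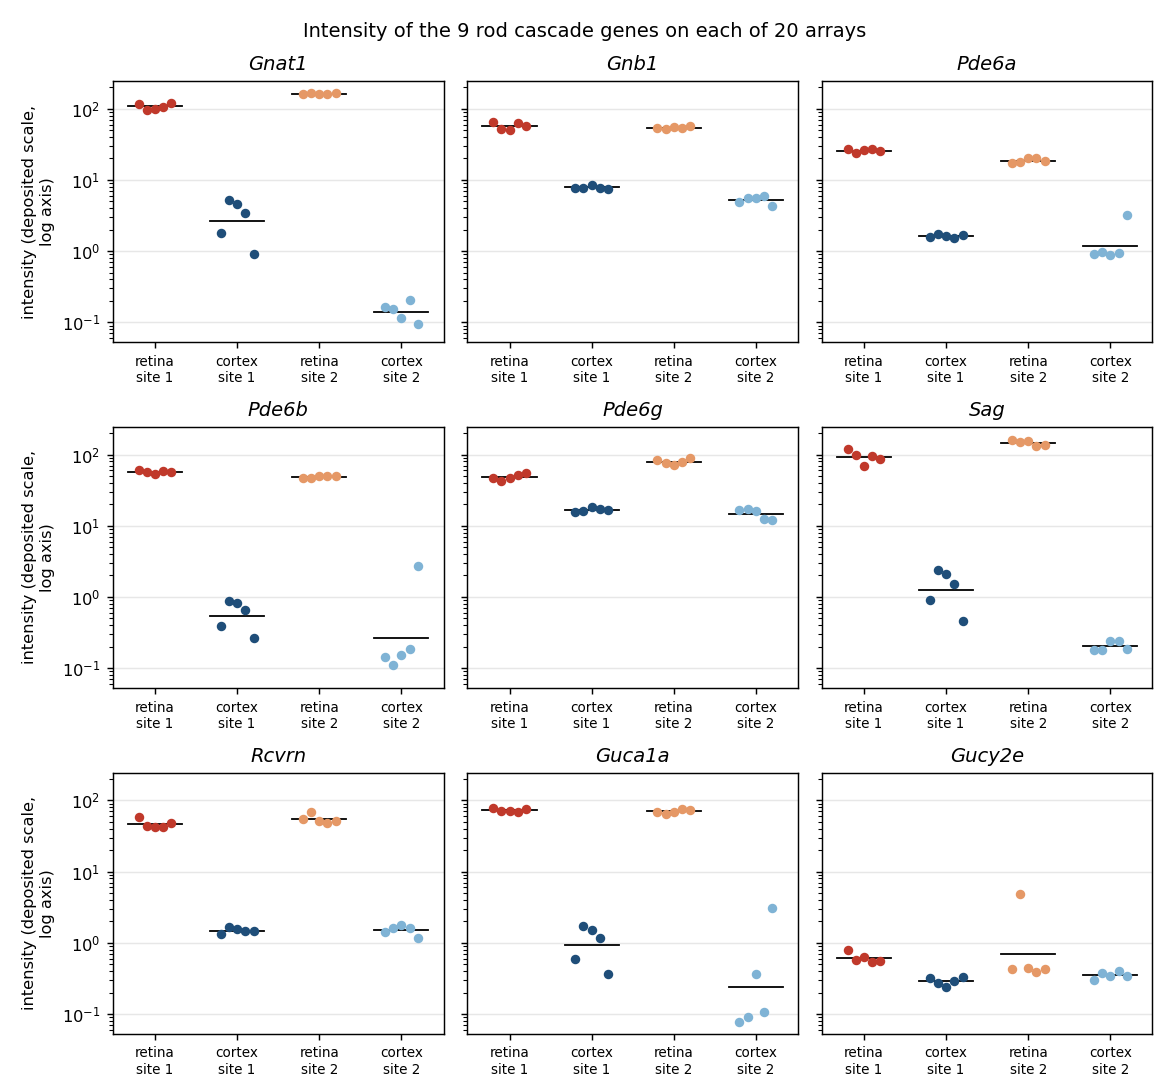
Intensity of each of the 9 genes on every array, on a log axis in the deposited units; points are arrays (replicates 1 to 5 from left to right), bars are geometric means of 5 arrays, red and orange are retina, dark and light blue are cortex. Retina lies above cortex at each site in every panel but that of Gucy2e, where the site 2 arrays overlap, the site 1 cortex points of Gnat1, Sag, Guca1a and Pde6b are spread widely, and single site 2 arrays stand apart for Pde6a, Pde6b and Guca1a (cortex) and for Gucy2e (retina).

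Both catalytic subunits of the phosphodiesterase were called higher in retina at both sites. Pde6a, the alpha subunit, read 27.0, 24.2, 26.5, 26.8 and 25.1 in site 1 retina and 1.57, 1.72, 1.65, 1.55 and 1.66 in cortex. The site 2 readings were 17.3, 18.1, 20.2, 20.02 and 18.2 in retina and 0.926, 0.987, 0.877, 0.942 and 3.22 in cortex. The last array, cortex replicate 5 of site 2, stood above all other arrays of its group. Retina was 15.9-fold and 15.7-fold higher (log2 difference 3.99 and 3.97, SE 0.25 each, limma adjusted p = 3.6e-11 and 4.1e-11), and without that array the site 2 difference was 4.33. Through the shared spread the SE of site 1 also holds the spread of site 2 cortex (SD 0.80 log2). The SDs at site 1 were 0.07 in retina and 0.06 in cortex (n = 5 each).

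Pde6b, the beta subunit, read 61.1, 56.1, 52.6, 58.9 and 56.9 in site 1 retina and 0.395, 0.865, 0.819, 0.648 and 0.265 in cortex. For site 2 the readings were 46.7, 47.1, 49.6, 50.7 and 49.2 in retina and 0.142, 0.109, 0.155, 0.187 and 2.72 in cortex, with replicate 5 again far above the others. Retina was 105-fold higher at site 1 (95% interval 43.1 to 254) and 186-fold higher at site 2 (76.5 to 450.4), with limma adjusted p of 1.1e-08 and 2.2e-09. The spread of site 2 cortex (SD 1.91 log2) enters the intervals of both sites. Without replicate 5 of site 2 cortex the site 2 log2 difference was 8.38 in place of 7.54. With a floor at the 25th percentile it was 7.21.

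Pde6g, the inhibitory gamma subunit, gave the smallest difference of the 8 genes called. It read 46.2, 43.1, 46.9, 51.4 and 55.8 in site 1 retina and 15.6, 16.0, 18.4, 16.9 and 16.7 in cortex, so that the cortex reading was 32.0% to 37.9% of the retina mean. At site 2 it read 71.8 to 89.1 in retina and 11.9 to 17.4 in cortex. The tissues differed by 1.54 log2 (SE 0.10, 2.91-fold) at site 1 and by 2.44 log2 (SE 0.10, 5.42-fold) at site 2, with limma adjusted p of 1.8e-10 and 1.8e-13. The cortex groups of the sites overlapped, whereas every site 2 retina array was above every site 1 retina array (log2 difference 0.71, SE 0.10, limma adjusted p = 2.3e-05, under the 2-fold limit).

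Sag, rod arrestin, read 121, 98.1, 69.8, 94.7 and 87.3 in site 1 retina and 0.906, 2.37, 2.12, 1.5 and 0.462 in cortex. Site 2 gave 160, 152, 154, 131 and 138 in retina and 0.179, 0.178, 0.238, 0.239 and 0.186 in cortex. As for Gnat1, the site 1 cortex arrays spread widely and lay above all site 2 cortex arrays. The log2 difference was 6.20 (SE 0.31) at site 1 and 9.50 (SE 0.31) at site 2, with limma adjusted p of 1.8e-12 and 3.4e-15. The order of the 4 groups was that of Gnat1, and the step from site 1 to site 2 retina (0.66, SE 0.31) did not pass (limma adjusted p = 0.0915). Over the alternatives the limma adjusted p of this step ran from 0.0021 to 0.668.

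Rcvrn, recoverin, read 59.1, 43.1, 42.1, 42.1 and 48.8 in site 1 retina and 1.31, 1.64, 1.58, 1.47 and 1.44 in cortex. At site 2 it read 48.7 to 69.5 in retina and 1.15 to 1.80 in cortex, and each tissue's arrays overlapped between the sites. Its log2 difference was 4.97 (SE 0.13, 31.4-fold) at site 1 and 5.20 (SE 0.13, 36.7-fold) at site 2, with limma adjusted p of 9.9e-17 and 4.7e-17. The difference between the sites' values was 0.22, with a 95% interval from -0.15 to 0.60 (limma adjusted p = 0.482).

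Guca1a, the activator of guanylate cyclase, read 78.2, 69.8, 71.2, 69.4 and 76.0 in site 1 retina and 0.594, 1.70, 1.52, 1.15 and 0.365 in cortex. Readings at site 2 were 68.0, 65.0, 69.0, 76.7 and 73.8 in retina and 0.0774, 0.0892, 0.364, 0.107 and 3.07 in cortex. The retina readings of both sites overlapped and were among the least variable (SD 0.08 and 0.10 log2, n = 5 each), while the site 2 cortex readings had an SD of 2.23 log2, n = 5, through replicate 5. Retina was 79.5-fold higher at site 1 (95% interval 27.8 to 228) and 291-fold higher at site 2 (102 to 833), with limma adjusted p of 2.9e-07 and 7.8e-09. That spread of site 2 cortex enters the intervals of both sites. Without replicate 5 of site 2 cortex the site 2 log2 difference was 9.10 in place of 8.19.

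Gucy2e, the guanylate cyclase of photoreceptors, was read at low intensity in both tissues. It read 0.788, 0.571, 0.638, 0.533 and 0.550 in site 1 retina and 0.320, 0.268, 0.235, 0.294 and 0.328 in cortex. At site 2 it read 0.428, 4.89, 0.438, 0.388 and 0.428 in retina and 0.302, 0.381, 0.342, 0.403 and 0.336 in cortex. Retina replicate 2 of site 2 was thus far above all other arrays, and of the others replicate 4 (0.388) lay within the range of the cortex arrays while the remaining 3 lay just above it. The log2 difference was 1.09 at site 1 (SE 0.48, limma adjusted p = 0.0608) and 0.97 at site 2 (SE 0.48, limma adjusted p = 0.0933), so neither was called. The 4 groups share 1 estimate of the spread per probe. Without retina replicate 2 of site 2 the site 1 difference of 1.09 had an SE of 0.11 and was called (limma adjusted p = 1.6e-07), and the site 2 difference was 0.26 (limma adjusted p = 0.0787). A fit of the site 1 groups alone also called it (limma adjusted p = 2.5e-05). With quantile normalization Gucy2e was called at site 2 (log2 difference 1.25, limma adjusted p = 0.0325), so that all 9 genes were called there. That fit includes retina replicate 2 of site 2, and quantile normalization without this array was not run.

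The retina-cortex difference was compared between the sites through the interaction term of the same fit. Gnat1 (log2 4.83, SE 0.49, limma adjusted p = 4.6e-05) and Sag (3.30, SE 0.44, limma adjusted p = 4.9e-04) had a larger difference at site 2 and were called, 2 of the 9 genes, and 0 were called in the other direction. Over all probes tested 0.271% were called in that direction and 0.455% in the other. Pde6g (0.90, SE 0.15, limma adjusted p = 0.0032) and Gnb1 (0.51, SE 0.12, limma adjusted p = 0.0273) passed the p threshold but not the 2-fold limit. Guca1a (1.87, limma adjusted p = 0.295) and Pde6b (0.83, limma adjusted p = 0.602) did not pass with all arrays. Without cortex replicate 5 of site 2 both were called (2.79 and 1.67, limma adjusted p = 0.0090 and 0.0098), and 4 of the 9 genes were. For Pde6a the value was -0.02 with a 95% interval from -0.75 to 0.71. Without cortex replicate 5 of site 2 the Pde6a value was 0.34 (limma adjusted p = 0.0209), under the 2-fold limit.

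Within retina, 0 of the 9 genes were called between the sites by limma, against 4.79% of all probes tested higher at site 2 and 1.45% lower (6.24% in all). Without the fold limit Pde6g alone passed, and 2 of the 9, Pde6g and Sag, had an unadjusted p under 0.05. These p-values rest on a spread shared with the cortex arrays. Over the alternatives the lowest limma adjusted p was 2.9e-06 for Pde6a, 1.3e-04 for Gnat1, 0.0015 for Gucy2e, 0.0021 for Sag, 0.0074 for Pde6b and 0.041 for Rcvrn. The highest for these genes ran from 0.342 to 0.992. For Gnb1 and Guca1a the lowest was 0.288 and 0.546. All 9 differences stayed under the 2-fold limit. The arrays of the sites did not overlap for Gnat1, Pde6g and Sag, 3 genes higher at site 2, and for Pde6a and Pde6b, 2 genes lower there, against 16.8% and 22.3% of all probes tested. Within cortex, 3 of the 9 genes, Gnat1 (-4.23), Sag (-2.64) and Guca1a (-1.92), were called lower at site 2 and 0 higher, against 1.92% and 5.29% of all probes tested. The cortex arrays of the sites did not overlap for 3 genes, Gnat1, Gnb1 and Sag, all lower at site 2, against 18.7% of all probes tested, and for 0 genes higher there, against 13.2%. The limma adjusted p was 3.9e-08 for Gnat1, 2.3e-06 for Sag and 0.0364 for Guca1a. The Guca1a call was lost without replicate 2, 3 or 4 of site 1 cortex or replicate 1, 2 or 4 of site 2 cortex (limma adjusted p of 0.0685 to 0.101), with replicate number as a block (limma adjusted p = 0.0511), in a fit of the cortex groups alone (limma adjusted p = 0.131) and with a floor at the 25th percentile, where Guca1a differed by -1.26 (limma adjusted p = 0.118). Without replicate 5 of site 2 cortex it was -2.84 (limma adjusted p = 3.4e-05), and Pde6b was then called too (-1.90, limma adjusted p = 1.3e-05).

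**Figure D3:**
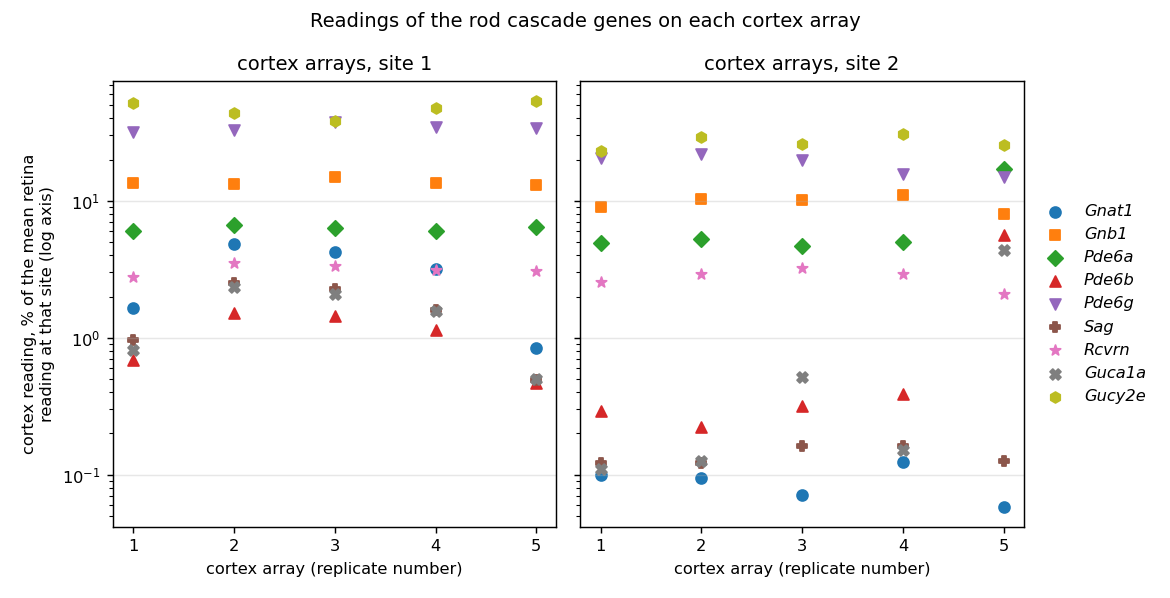
Reading of each of the 9 genes on each cortex array as a percentage of the mean retina reading of that gene at the same site, on a log axis, at site 1 (left) and site 2 (right). At the first site Gnat1, Sag, Guca1a and Pde6b are highest on replicate 2 and lowest on replicate 5 while Rcvrn, Pde6a, Gnb1 and Pde6g are nearly level, and at site 2 replicate 5 stands out for Pde6a, Pde6b and Guca1a.

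The 9 genes fell into different patterns over the site 1 cortex arrays. Gnat1, Sag, Guca1a and Pde6b ranked these arrays in the same way, replicate 2 highest, followed by replicates 3, 4, 1 and 5. As a share of the site 1 retina mean, Gnat1 read from 0.836% (replicate 5) to 4.84% (replicate 2), Sag from 0.490% to 2.52%, Guca1a from 0.500% to 2.33% and Pde6b from 0.465% to 1.51%. Rcvrn (2.79% to 3.50%), Pde6a (5.98% to 6.62%), Gnb1 and Pde6g varied by at most 1.25-fold over the same arrays. Within its narrow range Rcvrn was also highest on replicate 2, followed by replicates 3, 4, 5 and 1, so only the last ranks differed. Gucy2e varied by 1.39-fold and was highest on replicate 5. The ranking shared by Gnat1, Sag, Guca1a and Pde6b was noticed after the values were seen and carries no test. It was shared by 76 of 10339 probes tested (0.735%), by 32 of the 1425 whose site 1 cortex readings spanned at least 2-fold (2.25%), and by 13 of the 255 that spanned at least 4-fold (5.10%). All 4 genes are among the 32 and 3 of them, all but Pde6b, among the 13. Of those 32 probes 14 were called higher in retina at site 1 (43.8%, against 11.9% of all probes tested). The 14 include the 4 genes from which the ranking was taken. The 11.9% is over probes of any span, and the share among the 1425 was not computed.

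The same ranking was seen in 5 of 10 photoreceptor genes outside the 9 (Rom1, Prph2, Rp1, Tulp1 and Fabp12) and in 3 of 6 cone genes tested (Gnat2, Gnb3 and Opn1mw). It was seen in 0 of 3 other rod cascade genes, 0 of 13 related signalling genes, 0 of 11 genes of other retinal cells, 0 of 7 of pigment epithelium, 0 of 4 of lens and 0 of 10 of cortex. Over all probes tested the share was 0.735%, so counts of 0 in lists this short do not set them apart. Of the genes in these lists, all but Ncs1, Lrat and Mip also spanned less than 2-fold over the site 1 cortex arrays. The summed intensity of the 10 photoreceptor genes was 13.2, 19.2, 17.1, 17.2 and 13.0 on the site 1 cortex arrays and 9.28 to 11.4 on those of site 2. Of these 10 genes 4 were called lower at site 2 in cortex and 0 higher. Their part in the readings of Gnat1, Sag, Guca1a and Pde6b was not tested. On replicate 5 of site 2 cortex, where Pde6a, Pde6b and Guca1a were high, the cone gene Gnat2 was high too, at 8.34% of its retina mean against 0.315% to 0.409% on the other arrays of the group. On the same array Gnat1 read the lowest value of its group, Sag stood in the middle of its group, and the photoreceptor sum was the lowest of all cortex arrays (9.28), of which Unc119 (4.6) and Impg1 (2.45) made up the larger part. The 4 lens genes summed to 2.60 on that array and to 0.973 to 1.07 on the others of the group, through Mip (0.0992 to 1.93), and the part of either list in these readings was not tested.

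In retina, Gnat1 and Sag read near the upper end of each array. The highest probe of an array read 98.4 to 121 in site 1 retina and 103 to 125 in site 1 cortex. At site 2 it read 166 to 197 in retina and 225 to 272 in cortex. Gnat1 reached 92.6% to 100% of its array's highest reading in site 1 retina and 84.5% to 100% in site 2 retina, and Sag 66.9% to 99.9% and 69.9% to 91.8%. Gnat1 was itself the highest probe on replicate 5 of site 1 retina and on replicate 2 of site 2 retina. The highest reading of the arrays rose from site 1 to site 2 in both tissues, and Gnat1 and Sag rose in retina. Whether the scale limited Gnat1 and Sag was not tested.

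Few other genes of the rod cascade were measured by a named probe: Rgs9, the GTPase activator that shuts off transducin, Gnb5, its binding partner, and Pde6d, a prenyl-binding protein that carries phosphodiesterase to membranes. All 3 were called higher in retina at both sites, with medians of 1.33 and 1.48 log2. Rgs9 was 2.41-fold and 2.79-fold higher, Gnb5 10.4-fold at each site and Pde6d 2.51-fold and 2.08-fold. At site 2 Pde6d fell just under the 2-fold limit with quantile normalization (1.98-fold) and without cortex replicate 5 (1.93-fold). Their differences between the sites were not called (log2 0.21, 0.00167 and -0.27).

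Of 7 cone genes on the array, 6 could be tested, and retina was called higher for 5 of them at each site, with a median log2 difference of 7.09 and 7.11. The cone paralogue of Gnb1, Gnb3, was 149-fold and 181-fold higher and the inhibitory subunit of the cone phosphodiesterase, Pde6h, 125-fold and 129-fold. Gnat2, the cone transducin alpha subunit, was 227-fold and 149-fold higher, and 279-fold at site 2 without cortex replicate 5. Opn1mw, a cone opsin, was 172-fold and 173-fold higher. The cortex readings of these 4 genes lay mostly near or under the 25th percentile of all intensities, so their folds depend on the background. With a floor there, they were 117-fold and 100.03-fold for Gnb3, 106-fold and 92.3-fold for Pde6h, 128-fold and 60.5-fold for Gnat2 and 108-fold and 77.7-fold for Opn1mw. Cngb3, a subunit of the cone channel, was 7.55-fold and 3.70-fold higher. Its difference was smaller at site 2 (interaction -1.03 log2, SE 0.27, limma adjusted p = 0.0408), a call lost with quantile normalization (-0.77, limma adjusted p = 0.0731) and, through the 2-fold limit, with that floor (-0.83). Slc24a2, a sodium-calcium exchanger of cones that brain also expresses, was 1.63-fold and 1.53-fold higher and was not called. Pde6c, the catalytic subunit of cones, read 9.54 to 11.3 in site 1 retina and 0.0926 to 0.152 in cortex but was blank on all 5 site 2 retina arrays and was not tested.

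**Figure D4:**
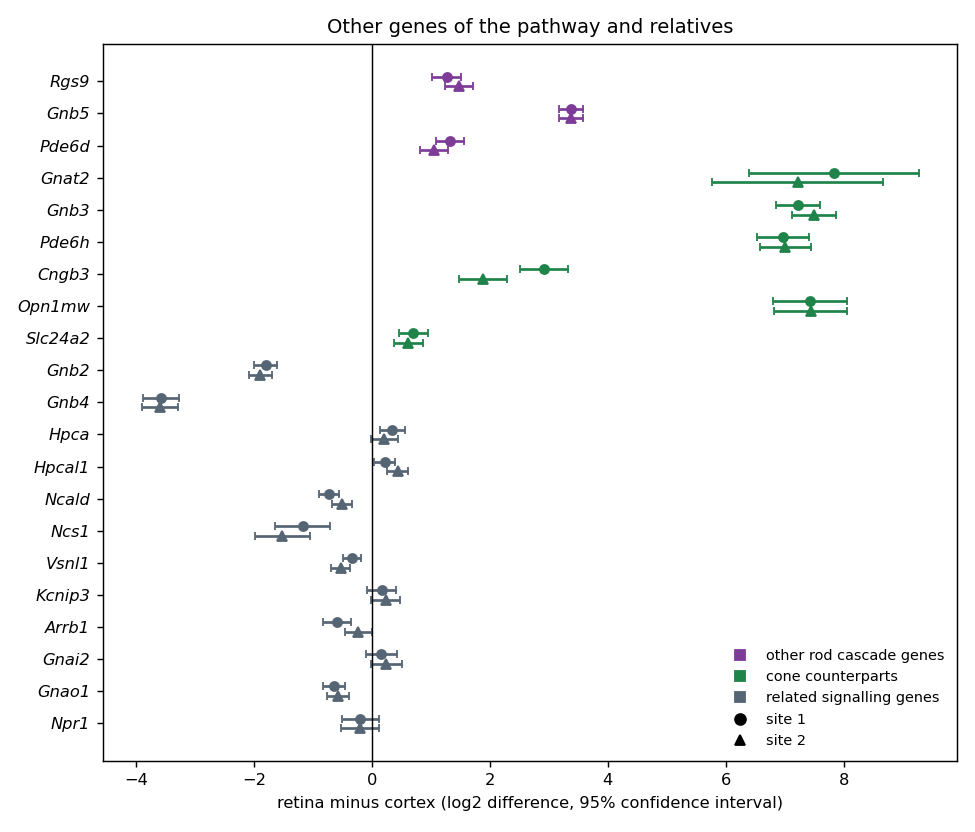
Log2 difference between retina and cortex, with 95% confidence intervals from limma, for the other rod cascade genes (purple), cone genes (green) and related signalling genes (grey) that could be tested; circles are site 1 and triangles site 2. Cone genes lie between 0.62 and 7.83, the rod genes between 1.06 and 3.37, and the related genes on both sides of 0, from -3.59 to 1.33 with Pde6d counted in both lists but drawn once.

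Relatives of the 9 genes from other signalling pathways did not share their direction as a group. Of 13 tested, 1 was called higher in retina (Pde6d, which the rod list also holds) and 3 were called lower at each site, with medians of -0.34 and -0.23 log2. Of all probes tested, 11.9% and 11.1% were called higher in retina at sites 1 and 2, and 13% and 13.5% lower. With 13 genes these counts do not set the list apart from all probes. The beta subunits Gnb2 (-1.80 and -1.89) and Gnb4 (-3.57 and -3.59) were called lower in retina, opposite to Gnb1, Gnb3 and Gnb5. Among calcium sensors related to recoverin, Ncs1 was called lower in retina (-1.17 and -1.52), at neither site once values were floored at the 25th percentile (-0.30 and -0.94), nor at site 1 with quantile normalization (-0.93), while Hpca (0.35 and 0.21), Hpcal1 (0.22 and 0.44), Ncald (-0.72 and -0.50), Vsnl1 (-0.34 and -0.53) and Kcnip3 (0.17 and 0.24) stayed under the 2-fold limit. So did Arrb1, an arrestin of many tissues (-0.59 and -0.23), the G protein alpha subunits Gnai2 (0.16 and 0.24) and Gnao1 (-0.64 and -0.58), and the receptor guanylate cyclase Npr1 (-0.19 and -0.20).

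The pattern of each gene over the 20 arrays was compared with those of the named genes that were tested and had a value on all 20. The measure was the root-mean-square difference in log2 intensity after each probe's own mean was subtracted. The nearest gene outside the 9 was Mgarp for both Gnat1 (0.37) and Sag (0.32), followed by Rp1 (0.70) and Ptpn14 (0.73) for Gnat1 and by Rom1 (0.36) and Ptpn14 (0.40) for Sag. For Pde6b and Guca1a the nearest were Gnat2 (0.52 and 0.83) and Opn1mw (0.89 and 1.10), with Ankrd33b (0.91) and Tulp1 (1.10) next. Rcvrn was nearest to Prom1 (0.18), Plekhb1 (0.19) and Mpp4 (0.26), and Pde6a to Pvalb (0.25), Vtn (0.33) and Gem (0.37). Gnb1 was nearest to Agpat3 (0.11), Rabgef1 (0.18) and Crlf3 (0.20), and Pde6g to Frmd4b (0.13), Cacna1f (0.15) and 2310051E17Rik (0.16). Gucy2e was nearest to Krt6a (0.41), Tex101 (0.44) and Pigo (0.44). Within the 9, Gnat1 and Sag (0.62) and Pde6b and Guca1a (0.51) were each other's nearest, as were Gnb1 and Pde6a (0.63). Single arrays that stand apart enter these values. Pde6b, Guca1a and Gnat2 all read high on cortex replicate 5 of site 2, and Gucy2e read 4.89 on retina replicate 2 of site 2. The part of these arrays was not tested.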

How the data were processed

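Total RNA of a retina pool and a cortex pool was measured on 20 arrays, 5 per pool and site. The authors deposited 1 linear intensity per probe and array; labelling followed the CodeLink assay, per the labels' protocols, whereas for scanner software, background step, scaling and any filter the sources used here give nothing. By the values, 143 were at or below 0 and 2080 were blank. Probes were named from the platform annotation.

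Intensities were put on the log2 scale, values at or below 0 were set missing, and 10339 of 10500 probes with at least 3 values in each of 4 groups were tested with limma 3.58.1 (R 4.3.3; 4 group means, 5 contrasts, eBayes). The deposited scaling was kept, since array medians differed by at most 0.0594 log2. The script was tested on simulated data. Alternatives were other scalings, floors at the 5th and 25th percentile, filters, thresholds, a variance trend, a replicate block, fits of the compared groups only and leaving out arrays; those of the pathway list genes were chosen after seeing the data. Folds are those of mean log2 values.

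Named genes were the 9 members, every measured gene of 3 fixed pathway lists and the 3 nearest patterns of each member; cell type lists served as checks. Of a gene's probes, the one with the highest mean log2 intensity stood for it. The members and lists were chosen with earlier results of these data known, so the lists are no independent check. Replicate numbers did not pair arrays: over 30 same-numbered pairs the correlation of deviations ran from -0.11 to 0.08, and 0 exceeded 0.1.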

Additional observations from a re-analysis of the deposited data

Results flagged for a closer look

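Of 36 sets of 5 arrays (9 genes in 4 groups), 4 held an array whose gap to the next exceeded Dixon's 95% critical value on the log2 scale, a test that flags about 1 set in 20 by chance. Gnb1 read 8.60 on replicate 3 of site 1 cortex. Cortex replicate 5 of site 2 read 3.22 for Pde6a and 2.72 for Pde6b. Retina replicate 2 of site 2 read 4.89 for Gucy2e.

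The retina-cortex difference differed between the sites at an adjusted p under 0.05 in limma's interaction term for 4 genes: Gnat1 by 4.83 log2 (adjusted p = 4.6e-05), Sag by 3.30 (4.9e-04), Pde6g by 0.90 (0.0032) and Gnb1 by 0.51 (0.0273). For Gnat1 and Sag the cortex readings moved between the sites by -4.23 and -2.64 log2 and the retina readings by 0.60 and 0.66. For Pde6g the retina readings moved by 0.71 and the cortex readings by -0.18, and for Gnb1 the cortex readings by -0.59 and the retina readings by -0.08.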

How the results depend on the processing

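The 8 genes called higher in retina kept their direction and their calls at both sites under every alternative listed, apart from Pde6g at site 1 with a 4-fold threshold. Their site 2 log2 differences ran over the alternatives from 9.70 to 10.30 for Gnat1, 9.44 to 9.65 for Sag, 7.52 to 9.13 for Guca1a and 7.21 to 8.39 for Pde6b. The number of genes among the 9 called between tissues was 8 to 9 at site 1 and 8 at site 2 when arrays were left out in turn. It was 9 at site 2 with quantile normalization, where the added gene, Gucy2e, was fitted with its outlying retina replicate 2. For retina and cortex compared at site 1 a fit of these groups alone also gave 9. For the difference between sites the number was 2 to 4 when arrays were left out, and 4 with no fold threshold or without both site 2 arrays that stand apart, an alternative chosen after seeing the data. For cortex between sites it was 2 to 4 when arrays were left out, and for retina it was 1 with no fold threshold, by construction.

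Values that changed sign stayed under the 2-fold limit. Gucy2e without retina replicate 2 of site 2, and the difference between sites of Pde6a without cortex replicate 5, had adjusted p under 0.05 in limma. With quantile normalization the difference between sites was 0.12 for Gucy2e and 0.23 for Pde6a, and Pde6g in cortex moved by 0.028 between sites; centred medians gave -0.0033 for Rcvrn in cortex. Leaving out arrays in turn gave -0.83 to 0.086 for Gucy2e and -0.13 to 0.34 for Pde6a in the difference between sites, -0.54 to 0.38 for Gucy2e in retina and -0.054 to 0.11 for Rcvrn in cortex. Without both arrays that stand apart, Gucy2e in retina was -0.54 and the difference between sites of Pde6a was 0.35. The cause was not tested.

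Over all probes, the calls, listed as site 1 tissues, site 2 tissues, difference between sites, retina between sites and cortex between sites numbered 2574, 2542, 75, 645 and 745. They were 905, 842, 8, 46 and 72 at 4-fold and 6192, 6247, 411, 4825 and 4841 with no fold threshold. Calls for the difference between sites, retina and cortex were 48, 262 and 329 among probes reaching the median in a group. With a floor at the 25th percentile retina and cortex gave 312 and 396. Leaving out arrays in turn gave 56 to 121 for the difference between sites, the highest without cortex replicate 5 of site 2 (121), and 133 were called without both arrays that stand apart. With replicate number as a block the 5 counts were 2573, 2534, 63, 639 and 740, and the counts among the 9 genes were the same except 2 in place of 3 in cortex between sites; 4 of 30 same-numbered pairs correlated best with their own number. The site 2 cortex readings of Gnat1, Sag, Guca1a and Pde6b lay mostly under the 25th percentile of all intensities (0.194). Replicate 5 was far above it for Guca1a (3.07) and Pde6b (2.72). The part of the background in these readings was not tested.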
